A study of Mus musculus with 47 samples.

Results

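Glucuronosyltransferases (gene symbols beginning with Ugt) and sulfotransferases (gene symbols beginning with Sult) were followed across 4 mouse tissues. All genes with such a symbol and a digit after it were taken, provided that at least 1 of the 4 tissue tables held 20 or more tags of the gene in total. Of 26608 gene symbols per table, 39 matched by name and 24 were members. Sult2b1 lay just inside the limit with 20 tags in brown fat, and Sult6b1 just outside it with 19 tags in the same tissue. The 24 members were Ugt1a1, Ugt1a5, Ugt1a6a, Ugt1a6b, Ugt1a9, Ugt2a3, Ugt2b1, Ugt2b5, Ugt2b34, Ugt2b35, Ugt2b36, Ugt2b37, Ugt2b38, Ugt3a1, Ugt3a2, Ugt8a, Sult1a1, Sult1b1, Sult1c2, Sult1d1, Sult1e1, Sult2b1, Sult4a1 and Sult5a1.

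The mice were C57BL/6J males, housed at 23 C, that started on their diets at 5 weeks of age and stayed on them for 11 weeks. Of these, 6 mice received a control diet (Control) and 6 a methionine-restricted diet (Methionine Restriction), and all mice were fasted for 5 h before tissue collection. Each library is named here by diet (CON or MR) and animal number, such as MR3101. Libraries of short tags from the 3' end of transcripts (SOLiD SAGE) were made from liver, from inguinal white fat (IWAT), from brown fat of the interscapular pad (BAT) and from gastrocnemius muscle (SM) of these 12 animals. The labels give an animal the same number in each tissue. SM of MR3113 was not analysed here, so that SM had 5 restricted libraries and every other group had 6.

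Both enzyme families belong to the conjugation phase of metabolism, in which hormones, bile pigments, drugs and dietary phenols are made more soluble for excretion. Glucuronosyltransferases sit in the endoplasmic reticulum and add glucuronic acid from UDP-glucuronic acid. Most sulfotransferases of this kind are cytosolic and transfer sulfate from the donor PAPS, and the sulfur of that sulfate can come from methionine and cysteine. Liver is the main site of both reactions.

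The tag that a SAGE library reads is the sequence that starts at the NlaIII site (capitals) nearest the 3' end of the transcript. The sequences that follow are 27 bases long, 5' to 3', read from the GENCODE vM1 protein-coding transcripts. They are shown because they decide which members can be told apart by a tag. The first 3 belong to the members called in the liver diet comparison, and the next pair shows the closest distinct tags among members.
Ugt2b1: CATGttatatttcgtatctgaaatatc
Ugt2b36: CATGtatagaaacatatgaaaaataaa
Sult1b1: CATGtgttctaatgctaagaaatatct
Ugt2b5: CATGaacaaactttcagcctcattctt
Ugt2b37: CATGaatgaactttcagcctcattcta
Ugt1a1, Ugt1a5, Ugt1a6b and Ugt1a9: CATGcattatgggtggcaagacctttg
Of the 24 members, 19 had a last tag held by no other gene. The tags of Ugt2b5 and Ugt2b37 differed at 3 bases. The other 5 members, all in the Ugt1a family, shared their last tag with further Ugt1a genes, whose transcripts have different first exons joined to common later exons. Tags that are their own lie further upstream in these transcripts.
Ugt1a9, own tag: CATGgtctttattggtgggatcaactg
Ugt1a5, own tag: CATGctgtaccatctggtcttgaagta
The own tag of Ugt1a9 began 1363 bases and that of Ugt1a5 1540 bases from the transcript end. The deposited counts do not say which tag of a gene was counted, so the values of single Ugt1a genes are uncertain.

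On the GRCm38.p6 assembly of RefSeq (the labels name mm10 and GRCm38.p1), 11 members lay within 702 kb of chromosome 5, in the order Ugt2b34, Ugt2b1, Ugt2b35, Ugt2b36, Ugt2b5, Ugt2b37, Ugt2a3, Ugt2b38, Sult1b1, Sult1d1 and Sult1e1. Ugt2b1 spans bases 86916639 to 86926503, Ugt2b36 bases 87065927 to 87092555 and Sult1b1 bases 87513327 to 87538195 of that chromosome. The 5 Ugt1a members overlap on chromosome 1, from the start of Ugt1a9 at 88070779 to 88220002. Sult1a1 lies on chromosome 7 from 126672865 to 126690443, Sult1c2 on chromosome 17 from 53829637 to 53845958, Ugt3a2 on chromosome 15 from 9335551 to 9370955 and Ugt8a on chromosome 3 from 125865272 to 125938682.

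The libraries held 4887004 to 13117537 tags each, and a gene with 0 tags could have had a level of up to 0.229 to 0.614 CPM (tags per 1000000 tags of the library), taking 3 tags as the limit for counting error. The summed level of the hepatocyte list (15 genes) in liver was 119955 to 332037 CPM, and that of the skeletal muscle list (10 genes) in SM was 30234 to 218863 CPM. White adipocyte genes (10 in the list) summed to 18932.5 to 96200.5 CPM in IWAT, and brown adipocyte genes (10) to 2041 to 6569 CPM in BAT. In IWAT, CON3106, CON3115 and MR3116 stood apart, with a median Spearman correlation under 0.8 to the rest of their tissue, as did MR3101 in SM. In these bulk samples fewer cells of a type and less RNA per cell cannot be told apart.

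Levels are given as CPM scaled with TMM factors over all 47 libraries and are not divided by transcript length, since a tag library reads about 1 position per transcript. In liver, 4 Ugt2b genes carried most of the glucuronosyltransferase tags. Ugt2b5 had a mean of 1563 ± 446 CPM (SD, n = 12), Ugt2b36 had 1260 ± 221 CPM, Ugt2b1 had 697 ± 187 CPM and Ugt2b34 had 637 ± 251 CPM. These genes are members of the family that conjugates steroids and many drugs. The ranges of Ugt2b5 and Ugt2b36 over the libraries of both diets overlapped, as did those of Ugt2b1 and Ugt2b34. Within a library, the ratio of Ugt2b5 to Ugt2b36 tags ran from 0.884 to 2.38 in Control and from 0.961 to 1.46 in restricted livers. The means of Ugt2b1 and Ugt2b34 were 847 and 536 CPM in Control and 547 and 738 CPM in restricted livers. Neither pair kept 1 order in every library.

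Among sulfotransferases Sult1a1, which sulfates simple phenols, led in liver with 524 ± 152 CPM (SD, n = 12). Sult1d1, an enzyme of catecholamine sulfation in mice, followed with 118 ± 20.3 CPM. Sult1b1, which acts on phenols and thyroid hormones, had 7.30 ± 2.59 CPM and Sult1c2 had 7.05 ± 2.18 CPM. In Control livers Sult1a1 made up 81.3% ± 4.88 of all Sult tags and Sult1d1 16.5% ± 4.63 (SD, n = 6).

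The lower levels in liver began with Ugt2b35 at 211 ± 63.0 CPM and Ugt2a3 at 64.4 ± 12.6 CPM (SD, n = 12). Ugt3a2, of a family that uses other sugar donors than UDP-glucuronic acid, had 32.3 ± 7.20 CPM. Ugt1a5 had 9.61 ± 3.24 CPM and Ugt1a1, the bilirubin-conjugating enzyme, had 7.35 ± 1.94 CPM. Ugt1a9 at 0.985 ± 0.916 CPM and Ugt2b37 at 0.389 ± 0.335 CPM were near the limit of these libraries.

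**Figure D1:**
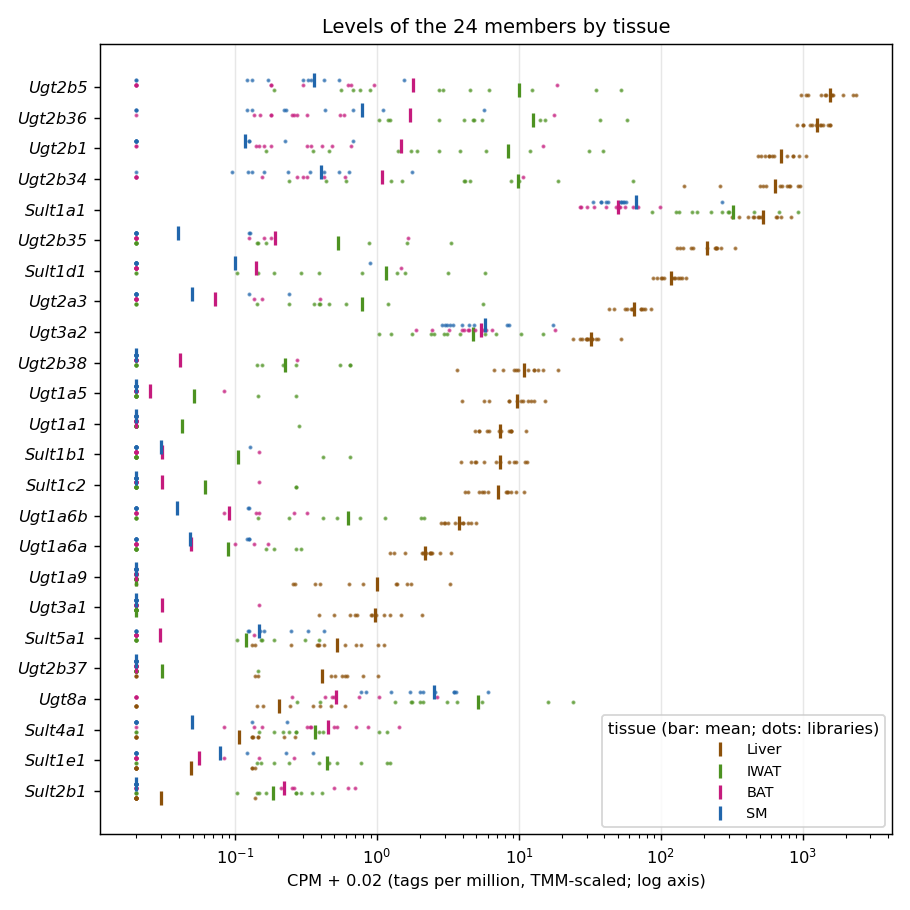
Level of each of the 24 members in every library (dots) with the tissue mean (bars), on a logarithmic CPM axis after adding 0.02, sorted by the mean in liver. Ugt2b5, Ugt2b36, Ugt2b1 and Ugt2b34 lie at the top of the liver values and spread widely in IWAT, while Sult1a1 lies between 27 and 931 CPM in every tissue and Ugt8a is highest in IWAT.

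Outside liver a single member dominated. Sult1a1 was the highest member in IWAT with 321 ± 253 CPM (SD, n = 12), in BAT with 49.5 ± 20.6 CPM (n = 12) and in SM with 66.7 ± 68.2 CPM (n = 11). Its SM range overlapped its BAT range. Ugt3a2 was measured in every library, at 5.40 ± 4.12 CPM in BAT, 4.70 ± 4.16 CPM in IWAT and 5.69 ± 4.30 CPM in SM. These means lay within each other's SD.

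Ugt8a, the enzyme that makes the galactosylceramide of myelin, was lowest in liver. Its mean was 5.12 ± 7.25 CPM in IWAT, 2.51 ± 1.55 CPM in SM, 0.495 ± 0.751 CPM in BAT and 0.184 ± 0.204 CPM in liver. In IWAT the 2 highest libraries, CON3106 with 23.9 CPM and CON3115 with 15.9 CPM, are among those that stood apart. In BAT, 33 of 67 Ugt8a tags came from CON3112, where the summed level of the Schwann cell list was 165 CPM (9 genes in the files; 19.5 to 75.7 CPM in the other BAT libraries). The part of nerve tissue in this value was not tested.

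The remaining members with their highest level outside liver were all low. Sult1e1, the estrogen sulfotransferase, had 39 tags in all IWAT libraries against 3 in liver. Sult4a1, known mainly from brain, had 43 tags in BAT, 30 in IWAT and 9 in liver. Sult2b1, which sulfates cholesterol, had 20 tags in BAT and 15 in IWAT. None of these reached a mean of 1 CPM in any tissue.

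Tissues were compared on the Control diet in 1 edgeR fit of all 47 libraries with Benjamini-Hochberg adjustment over 13541 genes, at a threshold of 0.05. This main fit had no term for the animal. The fit tested 17 members. Most of these passed the filter on low counts through their liver libraries, so the counts describe the members and do not test whether the families belong to liver. Liver was above BAT for 16 of 17 members and below it for 0 (47.9% of all genes were called, 22.3% higher in liver and 25.6% lower). Liver was above IWAT for 15 and below it for 1 (49.7% of all genes, 22.9% and 26.7%), and above SM for 16 and below it for 1 (56.8%, 29% and 27.8%).

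Ugt8a was the member lower in liver, by a log2 difference of -5.26 ± 1.00 (SE) from IWAT (adjusted p = 2.1e-05) and -3.58 ± 0.98 from SM (adjusted p = 0.00186). Against BAT its difference of -1.96 ± 1.02 missed the threshold (adjusted p = 0.110). Sult1a1 was higher in liver than in BAT by 3.29 ± 0.42 and than in SM by 3.74 ± 0.43 (log2, adjusted p = 1e-08 and 5.5e-10). Between liver and IWAT Sult1a1 differed by 0.51 ± 0.39 (adjusted p = 0.280). Without the IWAT and SM libraries that stood apart this difference was 1.26 with an adjusted p of 7.4e-05, and with library totals alone as the scale it turned to -0.16, where the median of all genes moved by -0.81.

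Ugt3a2 was higher in liver than in BAT, IWAT and SM by 2.78 ± 0.44, 3.86 ± 0.47 and 2.75 ± 0.44 on the log2 scale, with adjusted p-values of 9.4e-07, 3.1e-09 and 7.7e-07. For members with 0 tags in every Control library of a tissue only a lower bound can be given, from a limit of 3 tags over the group's mean library. Sult1d1 was at least 351-fold higher in Control liver than in SM, Ugt2b38 at least 37.9-fold and Ugt1a5 at least 35.6-fold. Ugt1a1 was at least 19.8-fold higher in liver than in BAT, 17.8-fold than in IWAT and 20.3-fold than in SM. Ugt1a9 had 0 tags in every BAT, IWAT and SM library of both diets.

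The Ugt2b tags found in fat sat in few libraries. In BAT, CON3106 held 281 of 303 Ugt2b36 tags, 296 of 319 Ugt2b5 tags and 23 of 23 Sult1d1 tags. That library's hepatocyte list summed to 3406 CPM, against 20.4 to 116 CPM in the other BAT libraries, with 5391 tags of Apoa1, a lipoprotein gene of hepatocytes. In IWAT, CON3103, CON3114 and MR3113 had the highest hepatocyte sums, at 9689, 3099 and 6686 CPM, and the other libraries ranged from 159 to 1219 CPM. CON3103 alone held 56.8% of the IWAT tags of Ugt2b34 and 40.9% of those of Ugt2b36.

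The summed tags of Ugt2b1, Ugt2b5, Ugt2b34 and Ugt2b36 were set beside the Apoa1 tags of the same library. Per 100 Apoa1 tags there were 12.1 to 43.8 such tags in liver (median 24.1), 4.76 to 51.4 in BAT (median 27.2) and 7.23 to 114 in SM. In IWAT the range was 17.2 to 314. The BAT libraries other than CON3106 held only 1 to 19 of the summed Ugt2b tags each, and the SM libraries 1 to 44. The BAT ratio of 4.76 was 1 tag beside 21 Apoa1 tags, and the SM ratio of 114 was 8 beside 7. The highest IWAT ratios were in the libraries that stood apart, with 258 in CON3106, 146 in CON3115 and 314 in MR3116. In the 3 IWAT libraries with the highest hepatocyte sums the ratios were 73.4, 17.2 and 21.7. The part of liver RNA in the fat and muscle values was not tested.

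**Figure D2:**
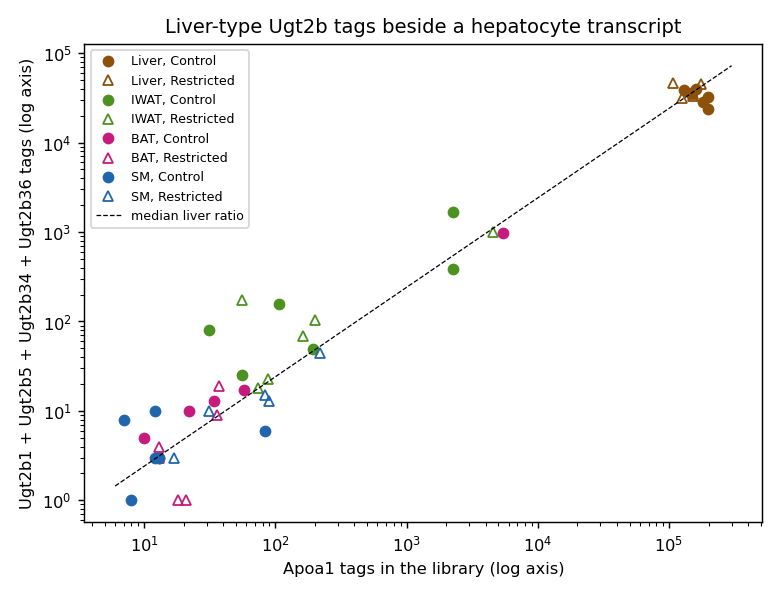
Summed tags of Ugt2b1, Ugt2b5, Ugt2b34 and Ugt2b36 against tags of Apoa1 in each library, both on logarithmic axes, by tissue (colour) and diet (filled circles Control, open triangles Methionine Restriction). The dashed line is the median liver ratio of 24.1 per 100 Apoa1 tags; BAT CON3106 and 3 IWAT libraries lie far up the axis toward liver, and the IWAT libraries at 146 to 314 per 100 lie above the line.

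Between the other tissues, SM was below IWAT for 11 of 17 members and above it for 1 (52.5% of all genes were called, 31.6% lower and 20.8% higher in SM), the one above being Ugt3a2 with a log2 difference of 1.11 ± 0.44 (adjusted p = 0.0313). That call was lost in 7 alternatives: with library totals alone (0.62, adjusted p = 0.163), with a stricter filter (0.0537), without the libraries with high hepatocyte sums (0.0723), and without IWAT CON3103 (0.0732), IWAT CON3107 (0.0971), IWAT CON3112 (0.0835) or SM CON3114 (0.0923). SM was below BAT for 6 members and above it for 0 (40.9% of all genes, 21.7% and 19.2%), but for 0 without BAT CON3106. With the animal as a block, since the tissues came from the same mice, SM was below BAT for 1 and above it for 1, the latter being Ugt8a (2.48, adjusted p = 0.0400). BAT was below IWAT for 5 and above it for 0 (33.4%, 18.2% and 15.2%), with 10 below when BAT CON3106 was left out and 3 below when IWAT CON3103 was. Sult1a1 was lower in BAT than in IWAT (log2 difference -2.78 ± 0.41, adjusted p = 2e-06), and Ugt8a had a log2 difference of -3.30 ± 0.84 (adjusted p = 0.00242). Without the IWAT and SM libraries that stood apart, the difference in Ugt8a was -1.22 and no longer called (adjusted p = 0.215). SM and BAT differed in Sult1a1 by -0.45 ± 0.39 (adjusted p = 0.372).

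The diets were compared within each tissue with edgeR's quasi-likelihood test, adjusted over all genes of the tissue. In liver, 16 of the 24 members were tested. Ugt2b1 and Sult1b1 fell and Ugt2b36 rose under Methionine Restriction. With 3 of 16 called, the share was 18.75%, and of all 10969 genes tested in liver 2.26% were called (1.05% higher, 1.21% lower). The median log2 fold change of the 16 was 0.08 and that of all genes 0.01.

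Ugt2b1 had levels of 624, 848 and 1047 CPM (lowest, median and highest) in Control livers and of 483, 556 and 603 CPM in restricted livers. Every restricted library lay below every Control library. The means were 847 ± 144 and 547 ± 45.5 CPM (SD, n = 6 each), and the log2 fold change was -0.62 ± 0.12 (SE, adjusted p = 0.0106). The call held in all 20 alternatives that were run for this gene, with fold changes from -0.70 to -0.44.

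Ugt2b36 moved the other way. Its lowest, median and highest levels were 915, 1067 and 1240 CPM in Control livers and 1320, 1453 and 1557 CPM in restricted livers. Again the groups did not overlap. Of the 16 tested members 2 had no overlap, and the share of all genes without overlap was not computed. The means were 1076 ± 121 and 1445 ± 106 CPM (SD, n = 6 each), and the log2 fold change was 0.43 ± 0.10 (SE, adjusted p = 0.0351). This call was near the threshold: it was lost in 13 of 20 alternatives (adjusted p up to 0.0967), 10 of them the omission of any single library other than CON3115 and MR3102, while the fold change stayed between 0.39 and 0.62.

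Ugt2b1 and Ugt2b36 lie in the same cluster, with Ugt2b35 between them. Within each library, the ratio of Ugt2b36 tags to Ugt2b1 tags needs no scaling between libraries. It ran from 1.18 to 1.61 in Control livers (median 1.19) and from 2.43 to 2.87 in restricted livers (median 2.62). The share of Ugt2b1 among all Ugt tags was 20.5% ± 5.41 in Control and 11.7% ± 1.40 in restricted livers (SD, n = 6 each), while that of Ugt2b36 was 25.7% ± 4.40 and 30.8% ± 3.18. These ratios describe the same tags as the fold changes and are no further test.

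Ugt2b5, the most abundant member, had 978, 1340 and 2388 CPM (lowest, median and highest) in Control and 1344, 1534 and 2263 CPM in restricted livers. The groups overlapped widely. Its log2 fold change was 0.12 ± 0.21 (adjusted p = 0.845), with a 95% interval from -0.30 to 0.54. Ugt2b34 had 146, 622 and 799 CPM in Control and 498, 762 and 956 CPM in restricted livers, and its fold change of 0.47 ± 0.34 (adjusted p = 0.571) rested on groups that also overlapped. The low Control values of Ugt2b34 were 146 CPM in CON3107 and 261 CPM in CON3115.

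Ugt2b35 had 129, 166 and 240 CPM in Control and 137, 246 and 335 CPM in restricted livers, with a log2 fold change of 0.49 ± 0.19 (adjusted p = 0.229). MR3104 was the low library of its group. Ugt2a3 had 61.4, 72.5 and 77.0 CPM in Control and 42.8, 56.5 and 85.1 CPM in restricted livers, a fold change of -0.25 ± 0.15 (adjusted p = 0.460). The summed level of all glucuronosyltransferase members was 4277 ± 819 CPM in Control and 4726 ± 593 CPM in restricted livers (SD, n = 6 each), a difference within the SD.

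Among the Ugt1a genes, Ugt1a5 had 8.52, 11.9 and 15.2 CPM in Control and 3.97, 7.29 and 10.3 CPM in restricted livers. The groups overlapped, and the log2 fold change of -0.67 ± 0.21 did not pass (adjusted p = 0.124). Ugt1a1 (0.24 ± 0.20), Ugt1a6a (0.39 ± 0.23) and Ugt1a6b (-0.10 ± 0.18), the latter pair acting on small planar phenols, did not pass either, with adjusted p-values of 0.644, 0.481 and 0.850.

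Ugt1a9 was left out of the liver test by the filter on low counts, yet its tags separated by diet. The Control livers had 0, 2, 2, 3, 3 and 5 tags and the restricted livers had 7, 10, 11, 15, 16 and 29. No restricted library was as low as the highest Control library. The gene can pass a filter of this kind only through the restricted libraries, so settings in which it passed are not counted as support. Without a filter edgeR gave a log2 fold change of 2.42 (adjusted p = 0.0127) and DESeq2 gave 2.48 (adjusted p = 0.000483). Ugt1a9 and Ugt1a5 share their last tag, and their fold changes had opposite signs. This gene was singled out after its values were seen.

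Sult1b1, the last called member, had 6.83, 9.36 and 11.4 CPM (lowest, median and highest) in Control and 3.89, 4.93 and 7.28 CPM in restricted livers. Only the highest restricted library exceeded the lowest Control library. The means were 9.40 ± 1.66 and 5.2 ± 1.16 CPM (SD, n = 6 each), and the log2 fold change was -0.85 ± 0.17 (SE, adjusted p = 0.0138). Sult1b1 was called in 19 of 20 alternatives, and with library totals alone, a scale that moved the median of all genes by 0.18, its adjusted p was 0.0512.

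Sult1c2, of the phenol sulfotransferase family, had 4.14, 5.34 and 8.21 CPM in Control and 5.69, 8.52 and 10.9 CPM in restricted livers. Its log2 fold change of 0.62 ± 0.19 did not pass (adjusted p = 0.106). It passed in 2 of 20 alternatives, with library totals alone (adjusted p = 0.0146) and without CON3115 (adjusted p = 0.0337). The ratio of Sult1c2 to Sult1b1 tags within a library was 0.378 to 0.857 in Control and 1.15 to 2.80 in restricted livers. This ratio sets a rising gene over a called falling one, describes the same tags as their fold changes and is no further test. Sult1a1 had 456, 578 and 821 CPM in Control and 315, 429 and 699 CPM in restricted livers, a fold change of -0.40 ± 0.19 (adjusted p = 0.344). Sult1d1 had 93.1, 115 and 141 CPM in Control and 87.6, 123 and 151 CPM in restricted livers, a fold change of 0.05 ± 0.14 (adjusted p = 0.919) with a 95% interval from -0.23 to 0.32. The sulfotransferase sum was 730 ± 133 CPM in Control and 585 ± 135 CPM in restricted livers.

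**Figure D3:**
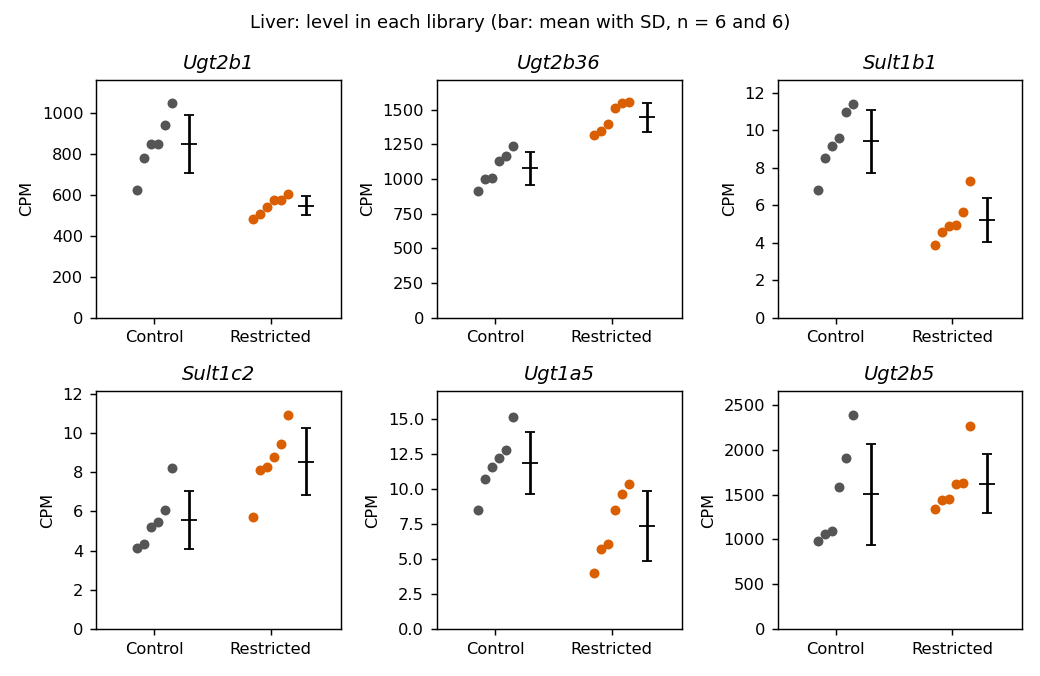
Level in CPM of 6 members in each liver library (dots, ordered by value within a group), with the mean and SD at the side (n = 6 per diet). Ugt2b1 and Ugt2b36 show no overlap between the diets, in opposite directions, and the other members shown overlap. The share of all genes without overlap was not computed.

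Values of other cell types in liver are given beside these changes. The hepatocyte list ran from 194883 to 332037 CPM in Control and from 119955 to 244890 CPM in restricted livers, and no gene of the list was at 0 in any library. The blood list (5 genes in the files, 2 of them at 0 in every liver library) ran from 95.5 to 158 CPM in Control and from 56.8 to 116 CPM in restricted livers. Fibroblast and mesothelial genes (10) ran from 306 to 574 and from 310 to 456 CPM. The part of cell composition in the liver results was not tested.

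Of 5 genes of UDP-glucuronic acid supply, Ugdh, the dehydrogenase that makes UDP-glucuronic acid from UDP-glucose, rose from 45.5 ± 4.03 to 86.1 ± 20.1 CPM (SD, n = 6 each), a log2 fold change of 0.93 ± 0.14 (adjusted p = 0.00156), in all 20 alternatives. The other 4 did not pass, and 2.26% of all genes tested in liver were called. Of 9 tested genes of sulfate donor supply, edgeR, DESeq2 and limma voom called 0, and 1 had an unadjusted p under 0.05, as did 14.5% of all genes tested in liver (Slc26a2, a sulfate transporter, with -0.62 ± 0.21 and an adjusted p of 0.169). Of 7 genes of the reverse reactions (glucuronidase and sulfatases) each of these tools called 0, and 2 had an unadjusted p under 0.05.

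Of 20 receptors and transcription factors known to regulate conjugation genes, edgeR called 0 and limma voom 0. In edgeR, 3 of the 20 had an unadjusted p under 0.05, as did 14.5% of all genes tested in liver. DESeq2 called 2 of the 20, Ppara, a receptor for fatty acids, and Ahr, the receptor for aryl hydrocarbons. The share of all genes that DESeq2 called is not given here. In edgeR, Ppara had a fold change of -0.45 ± 0.12 (adjusted p = 0.0650) and Ahr one of 0.59 ± 0.16 (adjusted p = 0.0795). Of 10 carriers of organic anions listed under export, edgeR called 1 (2.26% of all genes tested in liver were called). This was Slco2b1, an uptake carrier, which fell from 104 ± 6.85 to 78.0 ± 5.30 CPM, a log2 fold change of -0.41 ± 0.09 (adjusted p = 0.0175, or 0.173 with library totals alone).

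Several conjugating enzymes are known to differ between male and female mouse livers, so genes of known sex bias were listed beside them. Of 18 tested genes known to be higher in males, 10 had an unadjusted p under 0.05 in edgeR, as did 14.5% of all genes. DESeq2 called 6 of the 18 and limma voom 4, without a share of all genes from these tools beside the counts. The list's median fold change was -0.46, and that of all genes 0.01. Against 1.21% lower and 1.05% higher among all genes, 4 of the 18 fell and 0 rose with Methionine Restriction in edgeR. These were Cyp4a12b (-2.42 ± 0.37, adjusted p = 0.00191), Mup21 (-1.62 ± 0.25, adjusted p = 0.00191), Selenbp2 (-1.35 ± 0.33, adjusted p = 0.0459) and Cyp4a12a (-0.86 ± 0.17, adjusted p = 0.0123), which encode fatty acid hydroxylases, a urinary protein and a selenium-binding protein. Selenbp2 lost its call in 11 of 20 alternatives, 9 of them the omission of 1 library. The member Ugt2b38, also on that list, had a fold change of -0.46 ± 0.27 and did not pass (adjusted p = 0.467).

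Of 10 tested genes known to be higher in females, 5 had an unadjusted p under 0.05 in edgeR in liver, as did 14.5% of all genes. The list's median fold change was 0.52. DESeq2 called 3 of the 10 and limma voom 2, again without such a share. Against 1.05% higher and 1.21% lower among all genes, 2 of the 10 rose and 0 fell in edgeR. They were Cyp4a14 (2.88 ± 0.24, adjusted p = 1.3e-05), a fatty acid hydroxylase, and Cyp2c69 (2.21 ± 0.41, adjusted p = 0.00865), a member of a family of steroid and drug hydroxylases. All animals were male, and the sex-bias lists rest on general knowledge of mouse liver rather than on these data. The lists were chosen with earlier results of these libraries known, so that they are no independent evidence of direction. Outside liver, edgeR called 2 genes of all these lists, both in BAT, where 1.11% of all genes were called. They were Elovl3, which elongates fatty acids, on the male list (1.43 ± 0.25, adjusted p = 0.0131, 5 tested) and Abcd2, a peroxisomal importer of fatty acids, on the female list (-1.31 ± 0.18, adjusted p = 0.00323, 3 tested). DESeq2 called both as well, and further Nr3c1 and Ppara of the regulators in BAT and Elovl3 in IWAT. Elovl3 is also on the brown adipocyte list. In BAT that list summed to 2041 to 3951 CPM in Control and 4257 to 6569 CPM in restricted libraries.

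The genes whose level was most like that of a called member were found over the 12 liver libraries by Spearman correlation of log2 CPM among 10953 genes. For Ugt2b1 these were B630019A10Rik (0.95), Mup21 (0.94) and Madd (0.93). For Sult1b1 they were 1700037H04Rik (0.95), Gstm6 (0.94) and Oat (0.93), and for Ugt2b36 they were Ephx1 (0.95), Kctd6 (0.92) and Unc93a (0.92). Ephx1 encodes the microsomal epoxide hydrolase and Gstm6 a glutathione transferase. The 12 points share libraries, depth and diet groups, and the values are descriptive.

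**Figure D4:**
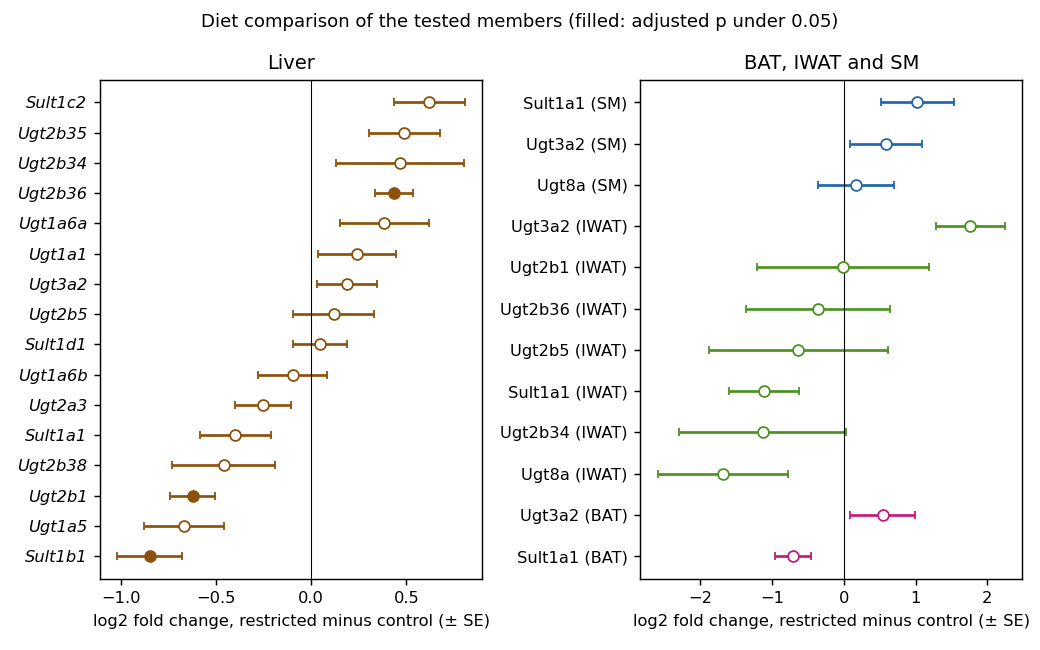
Log2 fold change (Methionine Restriction minus Control, with SE bars) of each tested member in liver at left and in BAT, IWAT and SM at right, from edgeR, where filled points have an adjusted p under 0.05. In liver Ugt2b1 and Sult1b1 lie below 0 and Ugt2b36 above it as filled points, and no point is filled at right, where the IWAT error bars of the Ugt2b genes are the widest.

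In IWAT 7 members were tested and edgeR called 0 (0.027% of all 11101 genes were called). Below an unadjusted p of 0.05 were 2 of them and 8.78% of all genes, DESeq2 called 1 and limma voom 0. The smallest p was that of Ugt3a2, with 1.00, 2.05 and 3.84 CPM (lowest, median and highest) in Control and 2.5, 6.29 and 14.8 CPM in restricted libraries. The groups overlapped, and 4 restricted libraries exceeded the highest Control library. The log2 fold change was 1.76 ± 0.48 (adjusted p = 0.185), against 1.83 in DESeq2 (adjusted p = 0.0199).

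Sult1a1 in IWAT had 180, 299 and 931 CPM in Control and 86.6, 149 and 453 CPM in restricted libraries. The highest 3 libraries were CON3106 (931 CPM), CON3115 (678 CPM) and MR3116 (453 CPM), which stood apart and whose white adipocyte list summed to 96200.5, 80798 and 78594 CPM, against 18932.5 to 46072 CPM in the others. The fold change was -1.11 ± 0.49 (adjusted p = 0.524). Ugt8a had 0.251, 2.81 and 23.9 CPM in Control and 0.375, 1.92 and 5.47 CPM in restricted libraries, a fold change of -1.69 ± 0.91 (adjusted p = 0.703) with most of the Control tags in CON3106 and CON3115.

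Of the Ugt2b genes in IWAT, Ugt2b34 had the smallest p, with means of 13.8 ± 24.6 CPM in Control and 5.83 ± 7.35 CPM in restricted libraries (SD, n = 6 each) and a fold change of -1.13 ± 1.17 (adjusted p = 0.9997). Without CON3103 the value was 0.65, and without the 3 libraries of highest hepatocyte sums 0.37. Ugt2b5, Ugt2b36 and Ugt2b1 had fold changes of -0.63 ± 1.25, -0.36 ± 1.01 and -0.01 ± 1.20, whose signs also turned without CON3103. Brown adipocyte genes in IWAT ran from 66.0 to 595 CPM in Control and from 1030 to 2513 CPM in restricted libraries, and fibroblast and mesothelial genes from 1588 to 6571 and from 680 to 1654 CPM. Their part in the IWAT values was not tested.

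In BAT 2 members were tested, and edgeR, DESeq2 and limma voom called 0 (in edgeR, 1.11% of all 10791 genes were called). Below an unadjusted p of 0.05 were 1 member and 13.6% of all genes. Sult1a1 had 33.5, 59.7 and 97.8 CPM in Control and 27, 35.4 and 50.9 CPM in restricted libraries. The groups overlapped, and the fold change was -0.71 ± 0.25 (adjusted p = 0.220). Ugt3a2 had 2.40, 4.37 and 5.85 CPM in Control and 1.85, 4.42 and 17.8 CPM in restricted libraries, a fold change of 0.54 ± 0.45 (adjusted p = 0.651) that turned to -0.11 without MR3109. The brown adipocyte list ran from 2041 to 3951 CPM in Control and from 4257 to 6569 CPM in restricted libraries, and the skeletal muscle list from 108 to 20083 and from 391 to 8142 CPM. Their part in the level of Sult1a1 was not tested.

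In SM 3 members were tested, and edgeR, DESeq2 and limma voom called 0 (in edgeR, 0% of all 11225 genes were called). Below an unadjusted p of 0.05 were 0 members and 6.32% of all genes. Sult1a1 had 33.4, 47.6 and 57.2 CPM in Control, and the 5 restricted libraries had 37.6, 42.6, 52.1, 52.3 and 271 CPM. The value of 271 CPM came from MR3101, which stood apart, and the other 4 lay within the Control range. The fold change of 1.03 ± 0.51 did not pass (adjusted p = 0.766). Skeletal muscle genes summed to 30234 CPM at the lowest among restricted libraries and to 131635 CPM at the lowest among Control libraries.

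Ugt3a2 in SM had 3.08, 4.20 and 8.46 CPM in Control, and the restricted libraries had 2.86, 3, 3.40, 8.17 and 17.2 CPM, the last again in MR3101. Its fold change was 0.59 ± 0.51 (adjusted p = 0.956), which was -0.06 without that library. Ugt8a had 0.817, 1.83 and 6.02 CPM in Control and 0.753, 2.09, 3.44, 3.49 and 3.60 CPM in restricted libraries, a fold change of 0.17 ± 0.53 (adjusted p = 0.971).

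**Figure D5:**
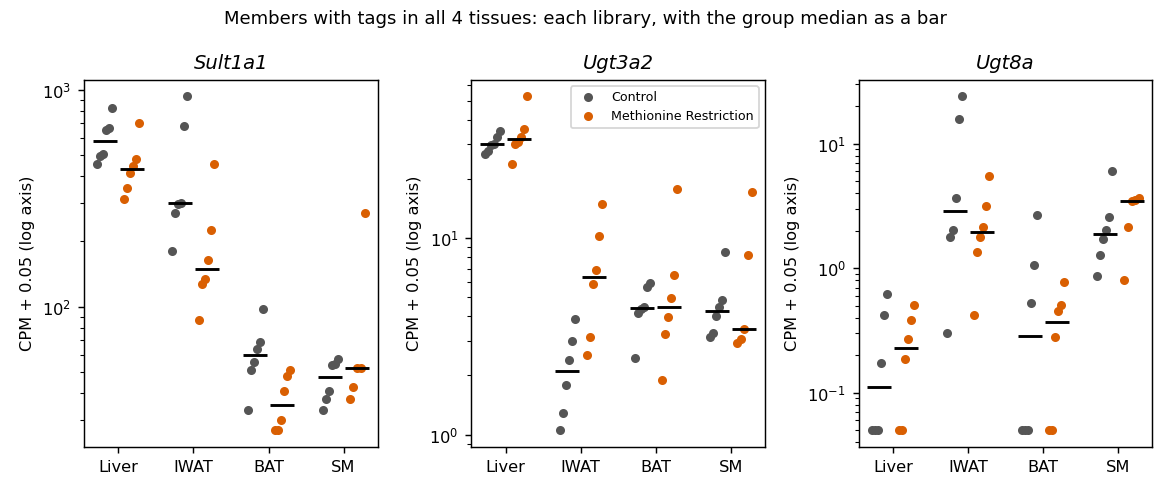
Level of Sult1a1, Ugt3a2 and Ugt8a in each library by tissue and diet (dots, with the group median as a bar), on logarithmic CPM axes after adding 0.05. The IWAT dots at 453 to 931 CPM and the SM dot at 271 CPM of Sult1a1 are the libraries that stood apart, and for Ugt3a2 in IWAT 4 restricted libraries lie above the highest Control library at 3.84 CPM.

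Whether the diet effect differed between the 4 tissues was tested in the joint edgeR fit. Of 17 members tested, edgeR called 0, limma voom 0, and 4 had an unadjusted p under 0.05 (0.524% of all 13541 genes were called, and 13.9% had such an unadjusted p). They were Ugt2b36 (adjusted p = 0.121), Sult1a1 (0.166), Ugt2b5 (0.276) and Ugt2b34 (0.335). Without IWAT MR3116, Sult1a1 (adjusted p = 0.0285) and Ugt2b36 (0.0468) were called. Over all alternatives and left-out libraries, the adjusted p reached up to 0.792, 0.634, 0.864 and 0.979 for Ugt2b36, Sult1a1, Ugt2b5 and Ugt2b34. The diet effect on Ugt2b36 was lower in BAT than in liver by 4.27 ± 1.44 (log2, edgeR adjusted p = 0.478). Against SM it was lower by 6.94 ± 1.70 (adjusted p = 0.0592). BAT CON3106 held 281 of 303 BAT tags of that gene, and its part in these values was not tested. The calls in liver are thus not shown to differ from the other tissues.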

How the data were processed

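Tag counts per gene symbol and library were deposited by the authors as whole numbers, 1 table per tissue with 26608 symbols. Per the labels' protocols, SOLiD SAGE libraries were made from 7 to 12 ng of total RNA; no aligner is named there. The authors also deposited a normalized signal, made with DESeq per the submitters' processing notes, which equalled the count divided by 1 factor per library and served for alternatives.

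Counts were filtered with filterByExpr (minimum count of 10), scaled by TMM and tested by quasi-likelihood in edgeR 4.0.16 under R 4.3.3, with p-values adjusted after Benjamini-Hochberg and called under 0.05, in each tissue for diet and in 1 fit of 8 groups over the 26583 symbols of all 4 tables for tissues and the interaction. Each SE was the size of the log2 fold change over the root of its F statistic. The 95% intervals took the normal quantile of this SE, so they are narrower than the F test would give. DESeq2 1.42.0 and limma 3.58.1 were alternatives, with other scalings, filters, omitted libraries and the animal as a block. Shares of all genes called are given for edgeR only, so counts from the other tools have no background beside them. The fits were tested on simulated data.

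The members, lists and tests were chosen with earlier results of these data known. Values were given for members called, the 8 of highest level, the 4 smallest p not called per tissue and the highest per tissue; called genes of each list were named. The labels give the same animal numbers in each tissue, so the tissues could be paired by animal. The main joint fit was not paired, and the animal as a block was an alternative. Deviations of the same animal's libraries had a mean correlation of -0.076 to 0.063 over the 6 pairs of tissues. Within a tissue each mouse is 1 replicate.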

Additional observations from a re-analysis of the deposited data

Results flagged for a closer look

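In 56 groups of 5 or 6 libraries, 4 held a library far from the rest by Dixon's test on log2 CPM (95% critical value), which chance gives in about 1 group of 20. Sult1a1 in SM MR3101 had 271 CPM, with the nearest library of its group at 52.3 CPM. In liver MR3101, Ugt2b5 had 2260 CPM (nearest 1625) and Ugt1a6a had 3.3 CPM (nearest 2.42). Ugt2b35 in liver MR3104 had 137 CPM (nearest 245).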

How the results depend on the processing

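The liver diet comparison called 3 members, and 2 to 5 when single libraries were left out (5 without CON3115, which adds Sult1c2 and Ugt1a9). These counts include Ugt1a9 wherever it passed the filter on low counts, which is not counted as support. Without CON3103, for instance, Ugt1a9 was counted while Ugt2b36 was not called (edgeR adjusted p = 0.0552). In IWAT, DESeq2 called 1 member. Left-out libraries gave 3 to 10 calls for BAT against IWAT, 0 to 7 for SM against BAT (3 without SM CON3114) and 0 to 2 for the interaction. limma voom called 8 members for BAT against IWAT and 2 for SM against BAT. Pairing the tissues with the animal as a replicate block gave 2 calls for SM against BAT, against 6 without it, and changed no other count by over 1.5 times; the cause was not tested. Without the libraries with high hepatocyte markers, an alternative chosen after seeing the data, as was library totals alone for the diets, SM against BAT had 0 calls.

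Fold changes that turned sign were in IWAT those of Ugt2b1 (0.0413 with DESeq2, 0.0358 with upper-quartile factors, -2.08 to 1.01 over left-out libraries), Ugt2b34 (-1.97 to 0.65, and 0.37 without the high hepatocyte libraries), Ugt2b36 (-1.36 to 0.92, and 0.68) and Ugt2b5 (-2.55 to 0.82), all positive without CON3103. Over left-out libraries Ugt3a2 ran from -0.11 (without MR3109) to 0.74 in BAT and from -0.0622 (without MR3101) to 0.84 in SM, and Sult1d1 in liver from -0.0296 (without MR3101) to 0.12. Ugt1a6b in liver was 0.0904 with library totals alone. Between tissues, Ugt3a2 in SM against BAT was -0.032 with the replicate block, -0.24 with library totals and -0.20 (without SM CON3114) to 0.12 over left-out libraries, Sult1a1 in liver against IWAT was -0.16 with library totals, and Ugt8a in SM against IWAT was 0.37 without the libraries that stood apart. None of these was called with its sign turned. The filter on low counts left out Ugt1a9, which had 0 to 5 tags in Control and 7 to 29 in restricted livers. It was singled out after its values were seen, and settings in which it passed are not counted as support. The untested members were not compared in the main fits and are not shown to be alike in both diets.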
